A study of Homo sapiens with 6 samples.

Results

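The EGF family ligands AREG, EREG, HBEGF, TGFA and BTC, the receptors EGFR, ERBB2 and ERBB3, and the receptor inhibitor ERRFI1 were followed in Huh7 cells after silencing of SETD5. These 9 genes were chosen by name as a family, with the fold changes of the same comparison already known, AREG being among the strongest rises. Their values are therefore a description. Of the 9 genes, 8 had a row in the table of 14200 genes used here; TGFA had none and was not analysed here. Of the 8, 7 passed the filter on low values, and BTC did not. The filter asked for an average of 1 CPM or more over the 6 libraries (CPM being reads scaled per library, as deposited).

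Huh7 is an established hepatocellular carcinoma cell line. The tested cells were transfected with siRNA against SETD5, which encodes a SET-domain chromatin protein, and the labels call them SETD5-deficient; the others are labelled control, with no word on what they received. Poly(A)-selected mRNA was sequenced from 3 SETD5 knockdown and 3 control libraries. Neither the number of siRNAs nor the origin of the 3 libraries of a group (1 culture or several) is stated, so the p-values rest on a spread between libraries that may be only technical.

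Ligands of the EGF family are made as membrane-anchored precursors and are released by cell-surface proteases. AREG (amphiregulin) and TGFA bind EGFR, whereas HBEGF, EREG (epiregulin) and BTC (betacellulin) can bind both EGFR and ERBB4. ERBB2 has no known soluble ligand and acts as the partner in receptor dimers, and ERBB3, with little kinase activity of its own, binds neuregulins. In liver, EGFR signalling is known for its part in regeneration after injury, and AREG is known to be induced there.

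SETD5 stood at 136, 140.4 and 138 CPM in the 3 knockdown libraries, against 212, 209.6 and 202 CPM in the 3 control libraries. The mean after knockdown was 0.664 times the control mean (limma adjusted p = 1.15e-17). The exact two-sided permutation test gave p = 0.1, the smallest that 3 against 3 libraries allow. Libraries held 14038447 to 17095417 reads. All 9 hepatocyte markers examined were above 1 CPM in every library. Together they summed to 40930 to 41300 CPM after knockdown and 43750 to 44690 CPM in control. AFP was the largest part, at 20270 and 21340 CPM. By limma (adjusted p under 0.05), 2 of the 9 were called higher and 6 lower, with a median log2 change of -0.19. Over all tested genes 25.7% were called higher and 26.5% lower. TTR fell to 0.619 times and FGB rose to 1.18 times the control. Of 5 immune markers 3 had a row, and their sum was 621 to 699 CPM after knockdown and 254 to 279.7 CPM in control, nearly all of it from LYZ. LYZ was called higher, at 2.49 times the control (limma adjusted p = 4.74e-27). CD14 went the other way, at 1.76 CPM after knockdown and 3.62 CPM in control (limma adjusted p = 8.3e-06). PTPRC, the defining one, was at 1.25 to 1.78 CPM after knockdown and at most 1.36 CPM in control, and was not called. Of 6 fibroblast markers 4 had a row, with sums of 313 to 323 CPM after knockdown and 169 to 178 CPM in control, most of it COL1A2. By limma 3 of these 4 were called higher, among them COL1A2 at 2.09 times the control (limma adjusted p = 9.39e-26), and 1 lower. The lower one was PDGFRB, at 18.2 CPM after knockdown, against 25.2 CPM in control (limma adjusted p = 1.42e-06). Of 4 endothelial markers 2 had a row, both under 1 CPM in every library. The part of these markers in the results below was not tested. In RNA from a whole culture, more cells that express a gene and more RNA per cell cannot be told apart.

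Across the family, 3 ligands and 1 receptor rose and 2 receptors fell after SETD5 knockdown. AREG, EREG, HBEGF and EGFR were called higher, ERBB2 and ERBB3 were called lower, and ERRFI1 was not called, by limma with a Benjamini-Hochberg adjusted p under 0.05 over 12865 tested genes. Over all tested genes, 25.7% were called higher and 26.5% lower in this comparison. In all 8 genes with a row the knockdown and control values did not overlap, which was also the case for 57.3% of all tested genes. Since the genes were chosen with these values known, nothing is read from the counts. Fold changes below are log2 fold changes of CPM + 1, knockdown over control, with 95% confidence intervals from the same fit; they understate the change of genes at a few CPM, for which the ratio of the mean CPM is given too.

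AREG, a ligand of EGFR, changed most. It had 7.19, 7.18 and 7.12 CPM in the 3 knockdown libraries, against 1.17, 0.557 and 0.786 CPM in the 3 control libraries. These levels rest on 115, 117 and 119 reads after knockdown and on 20, 8 and 11 reads in control. The knockdown libraries were nearly equal to each other, while the control libraries were few-read values whose 95% Poisson intervals overlapped (0.715 to 1.81, 0.241 to 1.1 and 0.392 to 1.41 CPM; counting error only). The mean was 7.16 ± 0.0391 CPM after knockdown and 0.838 ± 0.31 CPM in control (SD, n = 3 each), a ratio of 8.55. On the log2 scale the change was 2.16 (SE 0.13, interval 1.90 to 2.43), the 4th highest of the 12865 tested genes. That rank restates what was known when AREG was chosen. AREG passed the filter of 1 CPM only through its knockdown libraries, so the rank is no further finding. Older human assemblies such as hg19 carry a near-identical second copy of this gene, annotated AREGB. AREGB has no row in the table, and how reads shared between the copies were counted is not given in the sources used here, so the absolute level of AREG is uncertain.

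EREG, encoded next to AREG, rose less. It had 4.31, 4.05 and 4.72 CPM after knockdown, against 1.17, 1.53 and 1.43 CPM in control. Its reads numbered 69, 66 and 79 after knockdown and 20, 22 and 20 in control. Every knockdown library was above every control library by more than the spread within either group. The ratio of means was 3.17, and the log2 change was 1.17 (SE 0.13, interval 0.91 to 1.44), which lies wholly below the interval of AREG.

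The stretches upstream of the AREG and EREG starts are shown because these neighbouring genes had the largest changes among the ligands. Both are on chromosome 4, forward strand, in RefSeq coordinates of GRCh38.p14, and cover the 200 bases before the annotated start: chr4:74444936-74445135 for AREG and chr4:74364945-74365144 for EREG. Capitals mark matches to TGACGTCA (the cAMP response element, CRE), TGANTCA (loose AP-1 site, N any base) and GGAATG (the TEAD core). These were searched on both strands. Capitals also mark TATAAA (the TATA box), searched on the strand of the gene.

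AREG: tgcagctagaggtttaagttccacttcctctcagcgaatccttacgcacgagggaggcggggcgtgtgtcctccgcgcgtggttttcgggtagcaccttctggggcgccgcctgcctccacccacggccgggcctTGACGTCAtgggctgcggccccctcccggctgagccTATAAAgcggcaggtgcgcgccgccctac

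EREG: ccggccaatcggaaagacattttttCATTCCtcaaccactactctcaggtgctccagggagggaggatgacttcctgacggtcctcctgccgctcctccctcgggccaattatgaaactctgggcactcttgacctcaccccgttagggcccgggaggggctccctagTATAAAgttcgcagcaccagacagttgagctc

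The AREG stretch holds the CRE letters, with their first base at position -65 from the start, and TATAAA at -29. The EREG stretch holds TATAAA at -32 and a TEAD core match at -175. Among 35116 RefSeq promoter windows of 300 bases (250 before to 50 after the start), 1.85% hold the CRE letters, 7.33% TATAAA, 14.0% the TEAD core and 7.71% the AP-1 letters. The ERBB2 window holds the AP-1 letters, as TGATTCA, at -222. Of the 2 EGFR windows, the first holds none of these words, and the second holds 2 AP-1, 1 TEAD core and 2 TATAAA matches. The windows of HBEGF, BTC, TGFA and ERRFI1 hold none. RefSeq windows were found for 8 of the 9 genes, all except ERBB3. A match describes the letters of the window and nothing more.

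HBEGF, a heparin-binding ligand, had 11.3, 13.4 and 14.5 CPM after knockdown, against 7.44, 6.27 and 6.57 CPM in control. Its knockdown libraries differed among themselves more than those of AREG, from 181 to 242 reads, but the lowest of them was above the highest control library. The mean was 13.1 ± 1.6 CPM after knockdown and 6.76 ± 0.606 CPM in control (SD, n = 3 each), a ratio of 1.93 and a log2 change of 0.85 (SE 0.10, interval 0.66 to 1.05).

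BTC was near the lower end of what these libraries could measure. It had 0.938, 0.798 and 1.14 CPM after knockdown (15, 13 and 19 reads), against 0.586, 0.557 and 0.786 CPM in control (10, 8 and 11 reads). The groups did not overlap, but the lowest knockdown library (0.798 CPM) and the highest control library (0.786 CPM) were almost level. Their gap was smaller than 1 read, which is 0.061 CPM in the former and 0.071 CPM in the latter. Its mean was under 1 CPM and it was not tested; when all genes of the table entered the fit, its log2 change was 0.25 (SE 0.15) and it was not called.

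**Figure D1:**
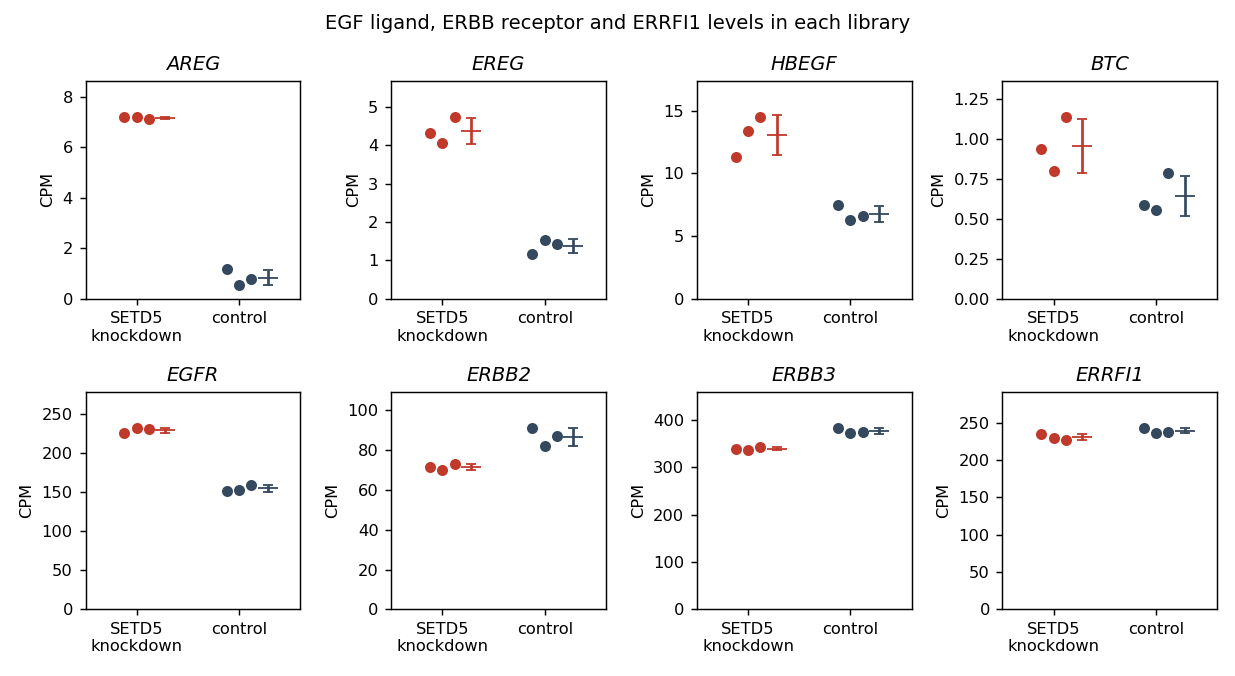
Level in CPM (y axis, from 0) of each gene with a row in the table, in the SETD5 knockdown libraries (red, left) and control libraries (dark, right). Points are libraries, and the bar beside them is the mean ± SD of 3 libraries. AREG is at 7.12 to 7.19 CPM after knockdown and at 0.557 to 1.17 CPM in control, while ERRFI1 differs by a few percent of its level.

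Among the receptors EGFR rose while ERBB2 and ERBB3 fell by smaller amounts. EGFR had 225, 232 and 230.0 CPM after knockdown, against 152, 153 and 159.6 CPM in control. The 2 ranges were far apart relative to their width. The mean was 229 ± 3.29 CPM after knockdown and 155 ± 4.3 CPM in control (SD, n = 3 each), 1.48 times the control, with a log2 change of 0.56 (SE 0.03, interval 0.50 to 0.63).

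ERBB2 had 71.3, 70.0 and 73.1 CPM after knockdown, against 90.9, 81.8 and 87.0 CPM in control. Its control libraries spread more widely (SD 4.56 CPM, n = 3) than its knockdown libraries (SD 1.54 CPM, n = 3), and all of them were higher. The ratio of means was 0.826 and the log2 change -0.27 (SE 0.04, interval -0.36 to -0.19).

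ERBB3 had 338, 337 and 344 CPM after knockdown, against 383, 373 and 375 CPM in control. The difference was small, 0.901 times the control, but several times the SD of either group (3.41 CPM after knockdown and 5.51 CPM in control, n = 3 each). The log2 change was -0.15 (SE 0.03, interval -0.21 to -0.10).

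ERRFI1, also known as MIG6, is a cytoplasmic protein that binds the EGFR kinase domain and inhibits it, and its gene is itself induced by EGFR signalling. It had 235, 229.7 and 227 CPM after knockdown, against 243, 237 and 238 CPM in control. The highest knockdown library lay just below the lowest control library, a gap smaller than the SD of either group (4.09 CPM after knockdown and 3.26 CPM in control, n = 3 each). The log2 change was -0.05 (SE 0.03), with an interval of -0.11 to 0.01 that holds 0. The log2 change of EGFR, 0.56, lies outside this interval, and EGFR signalling itself was not measured.

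ERBB4, the remaining receptor, and the neuregulin gene NRG1 were in a list of other family genes. ERBB4 had 10.9, 9.70 and 10.9 CPM after knockdown, against 3.69, 3.83 and 2.93 CPM in control. It rose to 3.01 times the control, with a log2 change of 1.36 (SE 0.11) and a limma adjusted p of 2.72e-13. NRG1, which encodes a ligand of ERBB3 and ERBB4, averaged 5.85 ± 0.177 CPM after knockdown and 7.04 ± 0.673 CPM in control (SD, n = 3 each) and was not called (limma adjusted p = 0.0605). It passed without control replicate 2 (limma adjusted p = 0.0251). Of the other 5 genes of that list, NRG3 and NRG4 were under the filter, each below 1 CPM on average in both groups, and EGF, EPGN and NRG2 had no row.

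**Figure D2:**
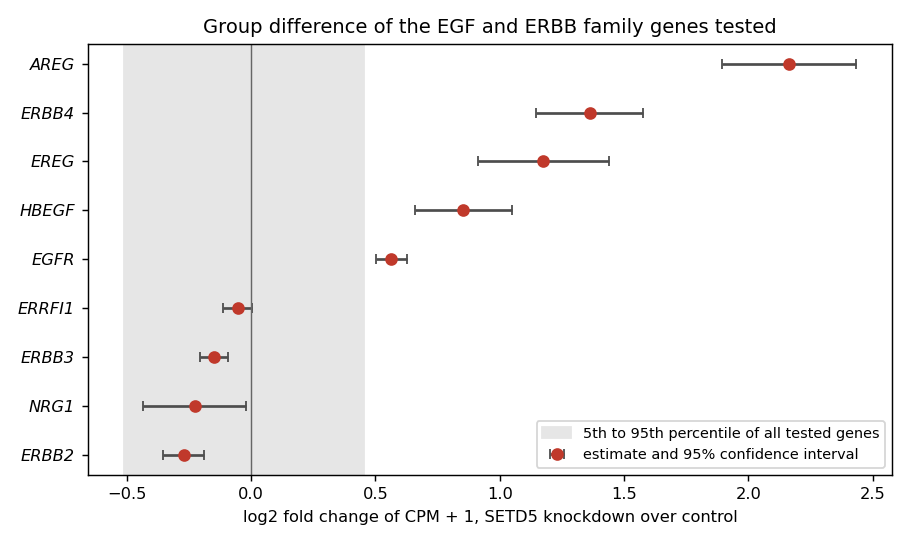
Log2 fold change of CPM + 1, SETD5 knockdown over control (x axis), for the family genes that were tested, from highest to lowest. Points are estimates, bars are 95% confidence intervals, and the grey band runs from the 5th to the 95th percentile of all tested genes (-0.51 to 0.45). AREG, ERBB4, EREG, HBEGF and EGFR lie above the band, and ERBB2, ERBB3, NRG1 and ERRFI1 lie within it.

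To compare levels between genes, CPM were divided by the length of 1 annotated transcript per gene (GENCODE 29, the APPRIS principal one). Per kilobase, ERRFI1 was highest in both groups, at 74.3 ± 1.32 after knockdown and 77.1 ± 1.05 in control (SD, n = 3 each), followed by ERBB3 at 57.4 ± 0.577 after knockdown and 63.7 ± 0.932 in control. EGFR and ERBB2 changed places by this measure, in which the EGFR transcript taken has 9821 bases and that of ERBB2 4545. In CPM without division by length, EGFR was above ERBB2 in both groups. EGFR was at 22.9 to 23.6 CPM per kilobase and ERBB2 at 15.4 to 16.1 after knockdown, whereas EGFR was at 15.4 to 16.3 and ERBB2 at 18.01 to 20.01 in control. The ligands were far lower. AREG and HBEGF were at 5.78 ± 0.0315 and 5.47 ± 0.673 CPM per kilobase after knockdown, within the spread of HBEGF. In control they were at 0.676 ± 0.25 and 2.83 ± 0.254. The uncertainty of the absolute AREG level holds here too. EREG and ERBB4 came next and overlapped in both groups. BTC had the lowest mean in both groups, but in control its libraries overlapped those of EREG and ERBB4.

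The make-up of the ligand transcripts differed between the groups. Summed per kilobase, AREG, EREG, HBEGF and BTC came to 11.8 to 13.2 CPM per kilobase after knockdown and to 3.61 to 4.52 in control. AREG made up 46.2 ± 2.86% of that sum after knockdown and 16.4 ± 4.23% in control, and HBEGF 43.6 ± 2.99% after knockdown and 70.3 ± 2.18% in control (SD, n = 3 each). EREG held a like share in both groups, 7.54 ± 0.492% after knockdown and 7.53 ± 1.81% in control. Per kilobase, the 4 receptors summed to 96.7 to 98.5 CPM after knockdown and to 96.9 to 100.5 in control, which hardly differed. EGFR was higher in that sum, and ERBB2 and ERBB3 were lower. The near balance holds for the transcripts taken, of which that of EGFR is long, 9821 bases, which lowers its weight. EGFR made up 24.0 ± 0.364% of the receptor sum after knockdown and 15.9 ± 0.531% in control. These sums and shares depend on the transcript taken for each gene, and those of the ligands also on the uncertain absolute level of AREG.

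**Figure D3:**
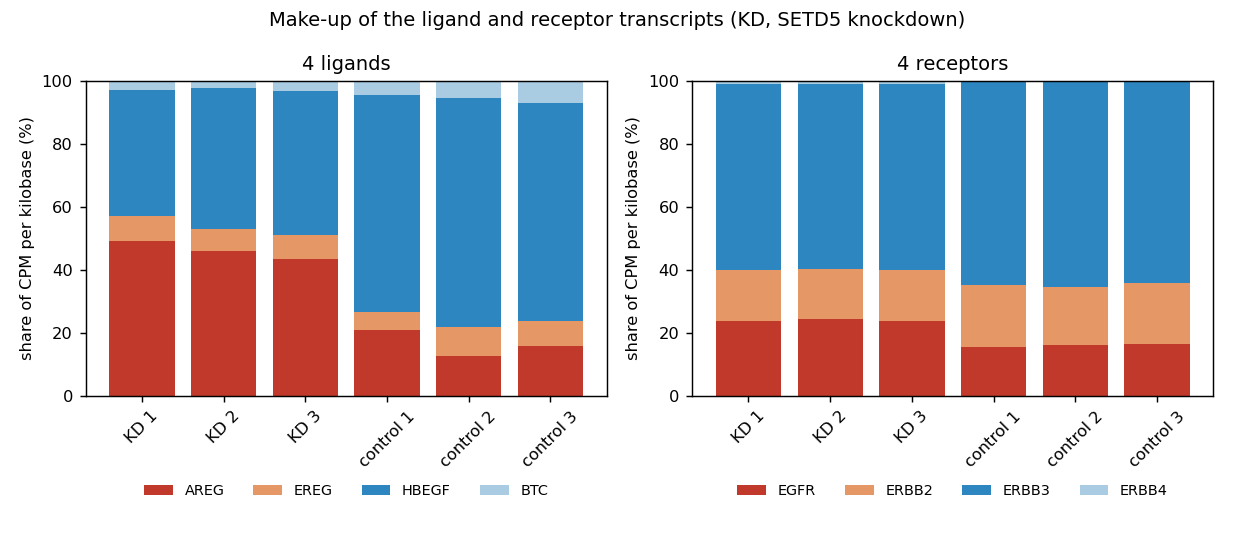
Share in percent (y axis) of each gene in the summed CPM per kilobase of 4 ligands (left) and 4 receptors (right), 1 stacked bar per library, SETD5 knockdown (KD) before control. AREG takes 43.4 to 49.1% of the ligand sum after knockdown and 12.5 to 20.9% in control, and ERBB4 stays under 1% of the receptor sum in every library. The ligand shares carry the uncertainty of the absolute AREG level.

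EPGN, EREG, AREG and BTC follow one another on chromosome 4, and the 5 protein-coding genes on each side were examined in the RefSeq order. Of these 10 neighbours, 7 had a row and 5 were tested; 1 was called higher and 1 lower, near the 25.7% higher and 26.5% lower of all tested genes. CXCL5, a chemokine gene, rose to 10.7 ± 0.823 CPM after knockdown, against 8.41 ± 0.357 CPM in control (SD, n = 3 each; log2 change 0.32, limma adjusted p = 0.00325). The chemokine genes CXCL3 and CXCL2 were under the filter and not tested, at 1.02 and 1.23 CPM after knockdown and 0.652 and 0.603 CPM in control. MTHFD2L, which directly precedes EPGN in the RefSeq order, was at 2.72 and 2.68 CPM, and PARM1, which follows BTC, at 29.2 and 28.7 CPM, in knockdown and control, and neither was called. RCHY1, a ubiquitin ligase gene, fell to 35.7 ± 1.51 CPM after knockdown, against 51.1 ± 1.79 CPM in control (limma adjusted p = 8.03e-11), and THAP6 was not called. The log2 changes of the 5 tested neighbours ran from -0.51 to 0.32, below those of EREG and AREG.

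**Figure D4:**
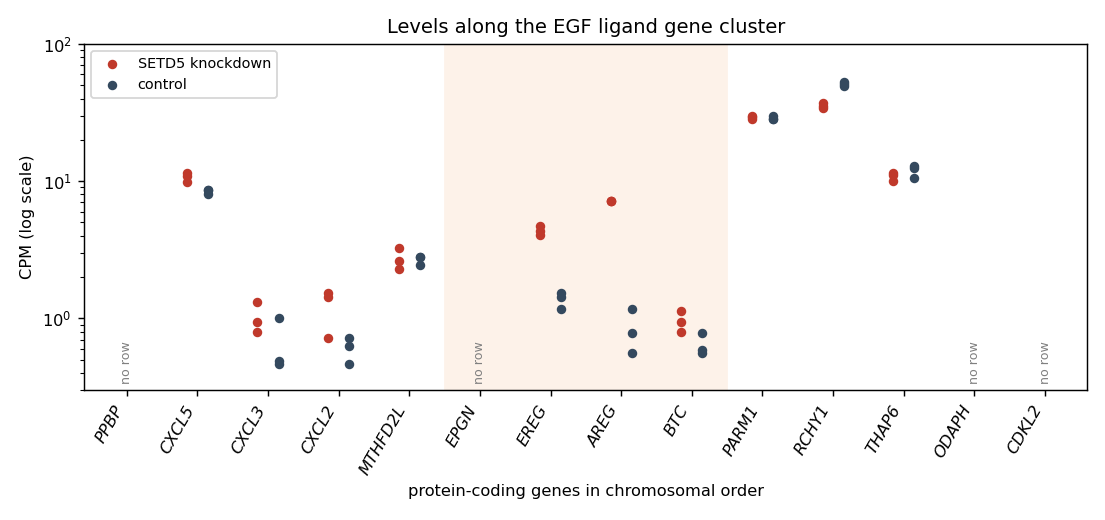
Level in CPM (log scale, y axis) of each protein-coding gene in chromosomal order (x axis, RefSeq), with SETD5 knockdown libraries in red to the left and control libraries dark to the right of each position. The shaded stretch is EPGN to BTC. AREG and EREG are the genes whose groups stand farthest apart; genes without a row are marked.

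Genes that release, relay, damp or follow EGF receptor signals were examined as 5 further lists; their counts are given beside the 25.7% higher and 26.5% lower of all tested genes. Of the 12 tested genes for ligand release and export, 4 rose and 5 fell (2 rose without SETD5 knockdown replicate 3), with a median log2 change of -0.04, against a median of 0.00 over all tested genes. FRMD8, which stabilises the iRhom and ADAM17 sheddase complex, rose to 70.4 ± 1.51 CPM after knockdown, against 42.9 ± 1.75 CPM in control (SD, n = 3 each; limma adjusted p = 1.09e-15). PACS2, a sorting protein, rose to 1.25 times the control. The tetraspanin CD9, a partner of membrane-anchored HBEGF, fell to 0.724 times, and RHBDF2, which encodes iRhom2, to 0.788 times the control. ADAM17, a main protease of AREG and HBEGF, is named for that role after its values were seen. It was at 41.6 ± 1.43 CPM after knockdown and 41.5 ± 2.81 CPM in control and was not called. The metalloprotease ADAM9 fell to 0.829 times and GORASP2 to 0.879 times the control.

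Of 32 receptor adaptors and relay genes of the RAS-ERK and PI3K pathways, 11 rose and 10 fell, with a median log2 change of 0.00. PLCG1, a phospholipase recruited by active EGFR, rose to 259.6 ± 8.18 CPM after knockdown, against 156 ± 3.08 CPM in control (limma adjusted p = 1.34e-20). The regulatory subunits of PI3K went apart: PIK3R3 rose to 2.07 times the control (limma adjusted p = 6.4e-20), while PIK3R2 fell to 0.657 times (limma adjusted p = 2.23e-16). The phosphatase PTPN11 was at 394.5 ± 6.61 CPM after knockdown and 386 ± 5.93 CPM in control and was not called.

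Of 23 tested genes for receptor trafficking and attenuation, 3 rose and 6 fell, with a median of -0.05. The ubiquitin ligase CBLB rose to 34.5 ± 0.348 CPM after knockdown, against 24.1 ± 1.14 CPM in control (limma adjusted p = 2.37e-09), and the phosphatase PTPRK to 1.30 times the control. EPS15, an endocytic adaptor first found as an EGFR substrate, fell to 30.2 ± 1.09 CPM after knockdown, against 49.5 ± 0.46 CPM in control (limma adjusted p = 3.42e-14). SOCS5, of the cytokine signalling suppressors, fell to 0.821 times and the membrane protein gene LRIG3 rose to 1.15 times the control, and the endocytic adaptor EPN1 was at 111 CPM after knockdown and 110.0 CPM in control without a call.

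Of 20 tested output genes of the ERK pathway, 10 rose and 5 fell, with a median of 0.07. The ERK-induced phosphatases DUSP5, DUSP4 and DUSP6 all rose: DUSP5 to 249 ± 7.54 CPM after knockdown, against 161 ± 3.46 CPM in control (limma adjusted p = 1.42e-18), DUSP4 to 1.49 times and DUSP6 to 1.19 times the control. PHLDA1 rose to 1.28 times. ETV5, an ETS factor, fell to 59.0 ± 0.788 CPM after knockdown, against 104 ± 1.14 CPM in control (limma adjusted p = 2.09e-19). The cyclin gene CCND1 was not called. Output genes of this pathway thus moved both ways.

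YAP and TEAD target genes were examined because AREG is known as a target of YAP. Of 19 tested, 6 rose and 7 fell, with a median of 0.02. CTGF, a secreted matricellular protein, fell to 90.9 ± 2.77 CPM after knockdown, against 155 ± 4.58 CPM in control (limma adjusted p = 1.4e-19), and CRIM1 to 0.586 times the control. IGFBP3, an IGF-binding protein, rose to 1.55 times, TGFB2, a TGF-beta ligand, to 1.43 times and AMOTL2 to 1.36 times the control, and AJUBA, a LIM-domain adaptor gene, fell to 0.926 times.

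**Figure D5:**
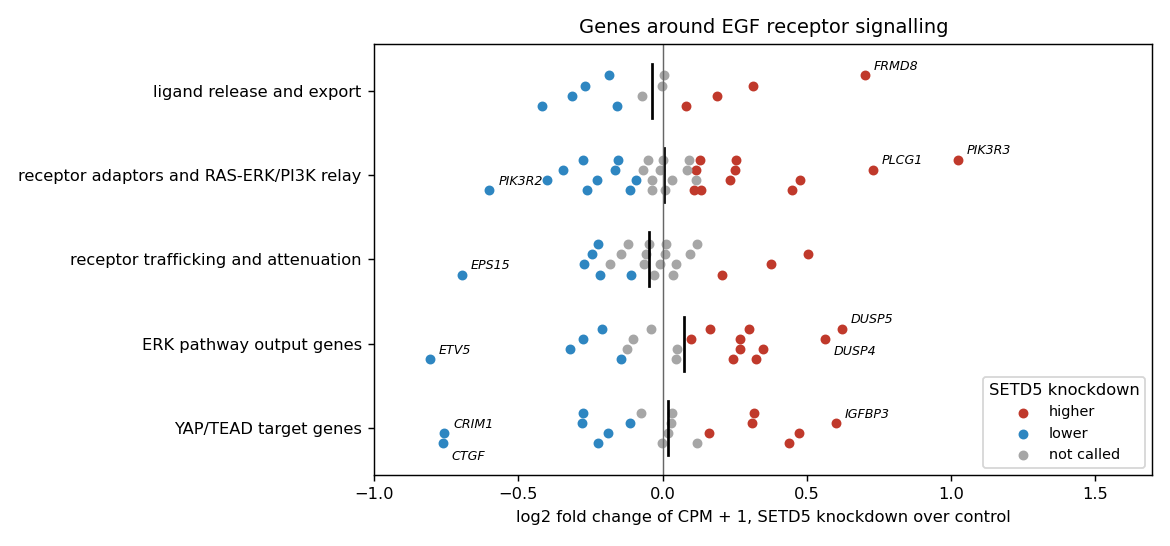
Log2 fold change of CPM + 1, SETD5 knockdown over control (x axis), of the tested genes in 5 lists around EGF receptor signalling (rows). Each point is a gene, red where called higher, blue where called lower and grey where not called, and the black bar is the median of the list. Every list holds genes on both sides of 0, with medians from -0.05 to 0.07.

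The genes whose pattern was most like that of AREG were taken by the root mean square difference of the 6 log2 values, after centring each gene on its control mean, among tested genes whose higher group averaged 5 CPM or more. The 5 nearest were CCDC80, ADH1B, TUBB3, SPTSSB and LYPD1, at 0.113 to 0.202 log2 units from AREG. With 6 libraries in 2 groups, likeness is mostly a like difference between the groups. Of these 5, CCDC80 was the nearest by this distance and LYPD1 the farthest. LYPD1 was the nearest in level, at 8.14 ± 0.613 CPM after knockdown and 0.867 ± 0.241 CPM in control (SD, n = 3 each). The distance was taken on CPM + 1, which shrinks the change of low genes such as AREG. By the ratio of mean CPM, AREG rose to 8.55 times the control and LYPD1 to 9.39 times. The ratio was 5.75 for ADH1B, 4.73 for CCDC80, 4.55 for SPTSSB and 4.11 for TUBB3.

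The word GCACCT was looked for in 3′ UTRs because it had been named in earlier work on these data. The median log2 change was -0.04 for the 3306 tested genes with the word and 0.01 for the others, out of 11520 with a 3′ UTR in GENCODE 29. Genes with the word also had longer 3′ UTRs, with a median of 2460 bases against 781. The 2 medians thus cannot tell the word from the length. Among the family genes with a row, EGFR and ERBB4 hold it once each, and AREG, EREG, HBEGF, BTC, ERBB2, ERBB3 and ERRFI1 do not. The part of this word in the values was not tested.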

How the data were processed

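Expression was measured by RNA sequencing of stranded, poly(A)-selected mRNA in 6 Huh7 libraries, per the labels' protocols. The authors deposited 1 table of log2 values named as normalized CPM. The submitters' processing notes name STAR 2.5.1, R 3.3.0 and the builds hg19 and mm10; for the counter, the scaling and the gene filter the sources used here name nothing. Taking 2 to the power of a value minus 1 gave whole multiples of 1 step per column (100% of values within 0.01 of a whole read), so the deposited log2 values are log2(CPM + 1), and reads were recovered from them. Counting intervals cover counting error only.

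Groups came from the sample titles. limma 3.58.1 in R 4.3.3 (lmFit and eBayes, two-sided, trended prior variance, group as the only term) was fitted to the deposited values of 12865 genes averaging 1 CPM or more, with Benjamini-Hochberg adjustment over all of them and a threshold of 0.05. Alternatives were a pseudocount of 0.1, no filter, no trend, median centring, a replicate block, and leaving out each library. The scripts were tested on simulated data. The chi-square statistic per gene between libraries was 1.25 to 2.06 within groups and 18.8 to 23.1 between groups, so no library was an identical copy of another. These values cannot tell repeat libraries of 1 culture from libraries of separate cultures.

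The family genes and all lists were chosen with earlier results of these data known. Named were the family genes; from each list the called genes that changed most (up to 4) and the most abundant of the rest (up to 2); the chromosomal neighbours; and the 5 genes most like AREG. Some genes that this rule names are not reported here. List symbols without a row were matched through RefSeq synonyms where unambiguous, which added CNIH1. 3′ UTRs and transcript lengths are from GENCODE 29 and promoters from RefSeq (GRCh38.p14), matched by symbol.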

Additional observations from a re-analysis of the deposited data

How the results depend on the processing

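For the 7 tested family genes, 77 of 77 log2 changes under 11 alternatives kept their direction and their side of the threshold. AREG ran from 2.05 to 3.00 and EREG from 1.11 to 1.6, both highest with a pseudocount of 0.1, since adding 1 CPM shrinks the change of low genes. NRG1 was called lower without the mean-variance trend, so that 1 gene of the list of other family genes was called lower against 0, and this count was 0 to 1 when libraries were left out in turn. Leaving out libraries gave 2 to 4 ligand release genes called higher, the lowest without SETD5 knockdown replicate 3. The replicate numbers did not pair the libraries (correlations of same-numbered deviations -0.011, 0.054 and 0.042); with the replicate block 3399 genes were called higher and 3499 lower, against 3303 and 3403, and the calls of the family genes were the same. Both planned count tests were tried on the recovered reads and are given without values, because the deposited unit is log2: both kept the calls of the family genes, and 1 of them called fewer genes over the whole table, fewer ligand release genes higher and fewer relay genes lower, so these list counts depend on the test. Depth limits AREG, EREG and BTC, whose control levels rest on 8 to 22 reads per library.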
